A study of Homo sapiens with 6 samples.

Results

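The genes described here are the 8 human sialyltransferases that place sialic acid on a terminal galactose, the alpha2,3 enzymes ST3GAL1 to ST3GAL6 and the alpha2,6 enzymes ST6GAL1 and ST6GAL2. They were found by matching the RefSeq accession that opens each probe set identifier to its gene symbol, and all 8 were measured. They account for 9 of the 1259 probe sets of the array and 8 of its 927 named genes. ST3GAL2 had 2 probe sets and every other member had 1.

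Expression was measured on 6 arrays of RKO, an established human colon cancer cell line, with 3 arrays in each of 2 populations. RKO C2 F3 (F3 below) was sorted from RKO C2 by flow cytometry for little u-PAR, the urokinase receptor. RKO C2 (C2 below) is the clonal parent population, and no drug or genetic change is named for either. The comparison looks for a glycosylation enzyme that is deficient in F3, where u-PAR does not mature fully. The sample labels describe F3 as clonal, and the design text does not. No label ties the 3 arrays of F3 or of C2 to different cultures, so a p-value here covers the spread between arrays, which may be technical.

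Sialic acid is the usual last sugar of complex N-glycans, mucin-type O-glycans and gangliosides. It is moved from CMP-sialic acid in the Golgi by enzymes that differ in the linkage they make and the chain they accept. ST6GAL1 makes the alpha2,6 linkage on the lactosamine arms of N-glycans, and in colon carcinoma it is known for raised activity and for altering the behaviour of surface glycoproteins. ST3GAL3, ST3GAL4 and ST3GAL6 make the alpha2,3 linkage on the same kind of arm, ST3GAL1 and ST3GAL2 act on galactose joined to N-acetylgalactosamine, and ST3GAL5 makes the ganglioside GM3.

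Values are log2 expression after robust multi-array averaging, so a difference of 1 is a doubling of signal. Array medians lay between 5.48 and 5.51, and the correlation between arrays over all probe sets was between 0.9981 and 0.9992. Of 11 colon epithelial markers 4 were measured, with MUC1 at the 69.6th percentile of the table and MUC2, MUC13 and LGALS4 between the 29.9th and 44.1st, while EPCAM and the keratins were not among the named probe sets. The summed log2 level of the 10 measured leukocyte markers, of 13 listed, ran from 40.94 to 41.75 in F3 and from 41.04 to 41.31 in C2. That of the 8 measured fibroblast and endothelial markers, of 9 listed, ran from 31.46 to 31.81 in F3 and from 31.75 to 32.21 in C2. A sum can hide opposite changes. Of the leukocyte markers 5 were lower and 5 higher in F3, from KLRC1 at -0.21 to CD72 at 0.23 (log2), and none passed the test below. Percentiles ran from 2.1 (KLRC1) to 54.3 (SIGLEC1) for leukocyte markers and from 0.4 (LUM) to 68.7 (BGN) for the others, overlapping those of the colon markers. The table carries no detection call, so none of these markers can be called absent. All members stayed in the tests, since no filter on low values was applied.

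None of the 9 galactoside sialyltransferase probe sets passed the test for a change between F3 and C2. Limma, fitted over all 1259 probe sets with Benjamini-Hochberg adjustment and a threshold of 0.05, gave a smallest adjusted p of 0.966 among them, and 0 of the 9 had an unadjusted p under 0.05. Of all probe sets 0.0794% passed the adjusted threshold and 5.40% had an unadjusted p under 0.05. The 1 probe set that passed belongs to PIGB, a mannosyltransferase of the membrane anchor of u-PAR, and is named here because its value was seen (log2 change -0.87, limma adjusted p = 0.013). Of the 9 sialyltransferase probe sets 6 had a negative change and 3 a positive one, while 54.6% of all probe sets had a negative change. Their median log2 change was -0.04, beside -0.0064 over all probe sets, and their median absolute change was 0.056, beside 0.047.

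ST6GAL1, the principal alpha2,6 enzyme of N-glycans, had the lowest change of the family. Its log2 expression was 7.39, 7.57 and 7.29 on F3 arrays 1, 2 and 3, and 7.50, 7.90 and 7.49 on C2 arrays 1, 2 and 3. The populations overlapped, since F3 array 2 lay above C2 arrays 1 and 3, and C2 array 2 stood highest. The means were 7.41 ± 0.14 in F3 and 7.63 ± 0.23 in C2 (SD, n = 3 each), which is -0.22 on the log2 scale (SE 0.12, 95% interval -0.49 to 0.055, limma adjusted p = 0.966). This corresponds to 1.16-fold less signal in F3, and the interval reaches 1.40-fold less. Its absolute change lay at the 97.9th percentile of all probe sets. In bulk RNA a lower level in each cell and fewer expressing cells cannot be told apart.

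The arrays carry replicate numbers 1 to 3 in both populations, and arrays of one number were taken as pairs. Within pairs 1, 2 and 3 ST6GAL1 differed by -0.12, -0.33 and -0.20 (F3 minus C2), below 0 each time. Of all probe sets 17.8% were lower in F3 in every pair. With the number as a block the ST6GAL1 interval was -0.36 to -0.07 and the unadjusted p was 0.0092, a level under 0.05 that 8.02% of all probe sets reached in the blocked fit. The blocked limma adjusted p was 0.469, so the block did not bring a call. Without C2 array 2 the unblocked change was -0.08, and without any other single array it lay between -0.29 and -0.15.

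**Figure D1:**
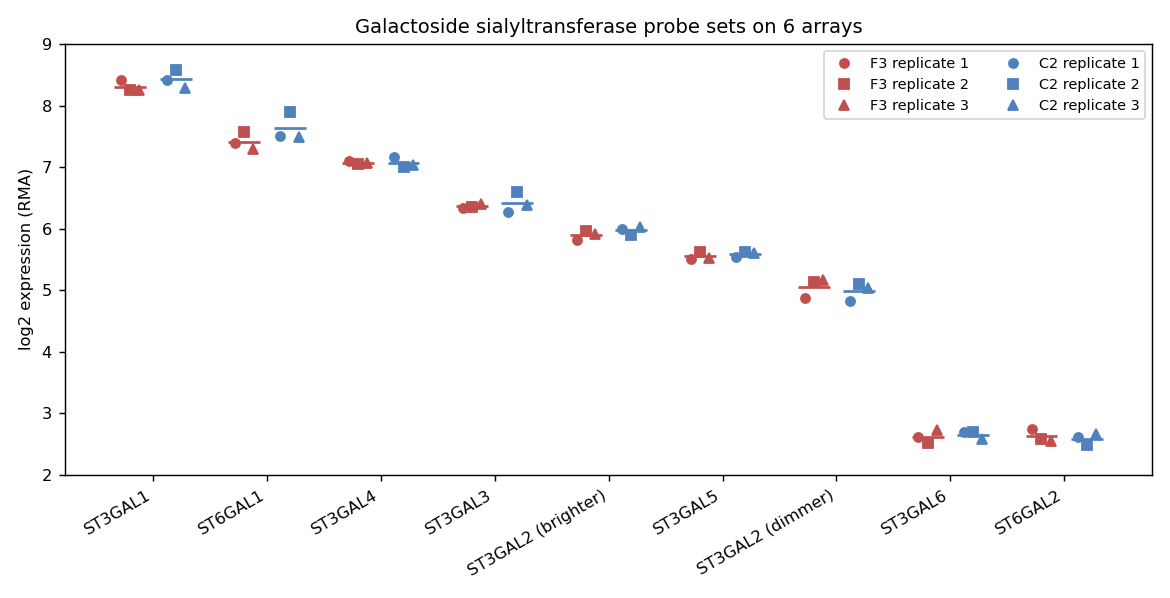
Log2 expression of the 9 probe sets on each array, ordered by mean level, with F3 in red at the left and C2 in blue at the right of each pair. Symbols mark the replicate number and lines mark the mean of 3 arrays. The populations overlap for every probe set, C2 array 2 stands highest for ST6GAL1, ST3GAL1, ST3GAL3 and, by little, ST3GAL5, and ST3GAL6 and ST6GAL2 lie near 2.6.

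ST6GAL2, the second alpha2,6 enzyme, which is restricted mainly to brain, gave one of the lowest signals of the table. It had log2 values of 2.74, 2.58 and 2.55 in F3 and 2.61, 2.48 and 2.66 in C2, at the 3.9th percentile of all probe sets. The values of both populations lay among each other. Its log2 change was 0.04 (95% interval -0.13 to 0.20, limma adjusted p = 0.998) and turned to -0.02 without F3 array 1 and to -0.01 without C2 array 2.

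The probe sets of the pair of alpha2,6 enzymes thus lay far apart in signal. A start of each gene is shown as a description only. Whether these starts are used in RKO, or bear on the signal, was not tested. The windows hold 250 bases before and 50 after a transcript start, from RefSeq on GRCh38.p14, with capitals marking each GC box (GGGCGG on either strand). The ST6GAL1 window is chr3:186930276-186930575 on the plus strand. The ST6GAL2 window, the most upstream of 4 for that gene, is chr2:106887060-106887359 on the minus strand.
ST6GAL1: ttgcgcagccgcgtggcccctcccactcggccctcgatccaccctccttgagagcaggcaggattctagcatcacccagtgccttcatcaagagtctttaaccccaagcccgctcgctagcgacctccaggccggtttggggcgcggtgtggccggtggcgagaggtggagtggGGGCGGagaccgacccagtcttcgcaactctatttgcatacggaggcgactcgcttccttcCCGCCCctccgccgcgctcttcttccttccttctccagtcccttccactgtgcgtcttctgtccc
ST6GAL2: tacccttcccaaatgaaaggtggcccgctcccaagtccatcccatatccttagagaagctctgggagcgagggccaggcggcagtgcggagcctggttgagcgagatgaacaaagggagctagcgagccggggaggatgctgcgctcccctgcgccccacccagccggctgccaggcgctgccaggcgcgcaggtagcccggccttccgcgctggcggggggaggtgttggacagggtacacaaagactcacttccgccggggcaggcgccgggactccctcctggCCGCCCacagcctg
The ST6GAL1 window holds 2 GC boxes at 64.0% G and C, and the ST6GAL2 window shown holds 1 at 68.3%. The ST6GAL2 windows not shown hold 0, 0 and 3 GC boxes, so the count for that gene depends on the window chosen. Boxes were counted in 18 windows of 6 of the 8 genes, and ST3GAL1 and ST3GAL2 were left out of this count. Of these windows 12 hold a GC box, 8 a CCAAT box (CCAAT on either strand) and 0 a TATA box (TATAAA). Among all 35116 windows of that length 45.0% hold a GC box, 34.6% a CCAAT box and 11.5% a TATA box. The counted windows do not stand for the whole family, and a difference from all windows was not tested. A GC box and a CCAAT box can share end letters and were then counted under both. The windows of one gene can overlap, and a match of letters is a description and not a binding site.

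ST3GAL1, which caps core 1 O-glycans and so competes with their extension, gave the brightest probe set of the family, at the 79.3rd percentile of the table. Its log2 values were 8.42, 8.25 and 8.24 on F3 arrays 1 to 3 and 8.41, 8.58 and 8.29 on C2 arrays 1 to 3. F3 array 1 lay above C2 arrays 1 and 3, so the populations overlapped. The log2 change was -0.12 (SE 0.085, 95% interval -0.31 to 0.076, limma adjusted p = 0.974). Most of it came from the arrays numbered 2, which differed by -0.33, while those numbered 1 and 3 differed by 0.013 and -0.043. Without both arrays numbered 2 the change was -0.01, and without C2 array 2 alone it was -0.04.

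ST3GAL2, the other enzyme of galactose joined to N-acetylgalactosamine, which also acts on gangliosides, was read by a brighter and a dimmer probe set. The identifier of the brighter one ends in _x_at, a suffix that Affymetrix gives to probe sets some of whose probes can bind other sequences. It had log2 values of 5.82, 5.96 and 5.92 in F3 and 5.99, 5.89 and 6.02 in C2. The dimmer one had 4.87, 5.13 and 5.16 in F3 and 4.82, 5.10 and 5.03 in C2, and its lowest value in each population was on the array numbered 1. The populations overlapped on both probe sets. The changes had opposite signs, -0.07 (95% interval -0.21 to 0.07) for the brighter and 0.07 (-0.16 to 0.30) for the dimmer, with limma adjusted p-values of 0.974 and 0.998. The mean of both probe sets changed by -0.0019. The dimmer probe set was higher in F3 in all 3 pairs, as were 12.2% of all probe sets, and its change turned to -0.02 without C2 array 1.

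ST3GAL3 and ST3GAL4, which put alpha2,3-linked sialic acid on N-glycan arms, stood in the middle and upper part of the table, at the 61.8th and 68.9th percentile. ST3GAL3 had log2 values of 6.34, 6.35 and 6.40 in F3 and 6.27, 6.60 and 6.38 in C2. The F3 arrays lay within the span of the C2 arrays, whose SD was 0.166 against 0.030 in F3. Its log2 change was -0.056 (95% interval -0.24 to 0.13, limma adjusted p = 0.998), and without C2 array 2 it was 0.03.

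ST3GAL4 was among the steadiest of the members. Its log2 values were 7.09, 7.04 and 7.07 in F3 and 7.16, 7.00 and 7.03 in C2, so the F3 arrays again lay within the span of the C2 arrays. The log2 change of 0.0077 had a 95% interval of -0.13 to 0.14 (limma adjusted p = 0.998), which allows at most 1.10-fold more and 1.09-fold less signal in F3. Its sign turned without F3 array 1, C2 array 2 or C2 array 3, with values between -0.024 and -0.0052.

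ST3GAL5, the GM3 synthase, sits at the entry to most gangliosides. Its log2 values were 5.50, 5.62 and 5.52 in F3 and 5.54, 5.62 and 5.61 in C2, at the 51.4th percentile, and its span of 0.12 over the 6 arrays was the narrowest of the family. The populations overlapped, with F3 array 2 above C2 arrays 1 and 3. The log2 change was -0.04 (95% interval -0.17 to 0.08, limma adjusted p = 0.998). Each pair had the same sign, at -0.038, -0.0025 and -0.092, and 17.8% of all probe sets were likewise lower in F3 in every pair.

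ST3GAL6, which acts on lactosamine arms and takes part in making sialyl Lewis x, gave a signal as low as that of ST6GAL2. It had log2 values of 2.61, 2.51 and 2.72 in F3 and 2.69, 2.69 and 2.57 in C2, at the 4.6th percentile. The highest and the lowest of these values were both F3 arrays. The log2 change was -0.04 (95% interval -0.20 to 0.12, limma adjusted p = 0.998), and it turned to 0.02 without F3 array 2. Robust multi-array averaging compresses changes of dim probe sets, so the intervals of ST3GAL6 and ST6GAL2 describe signal near the floor.

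**Figure D2:**
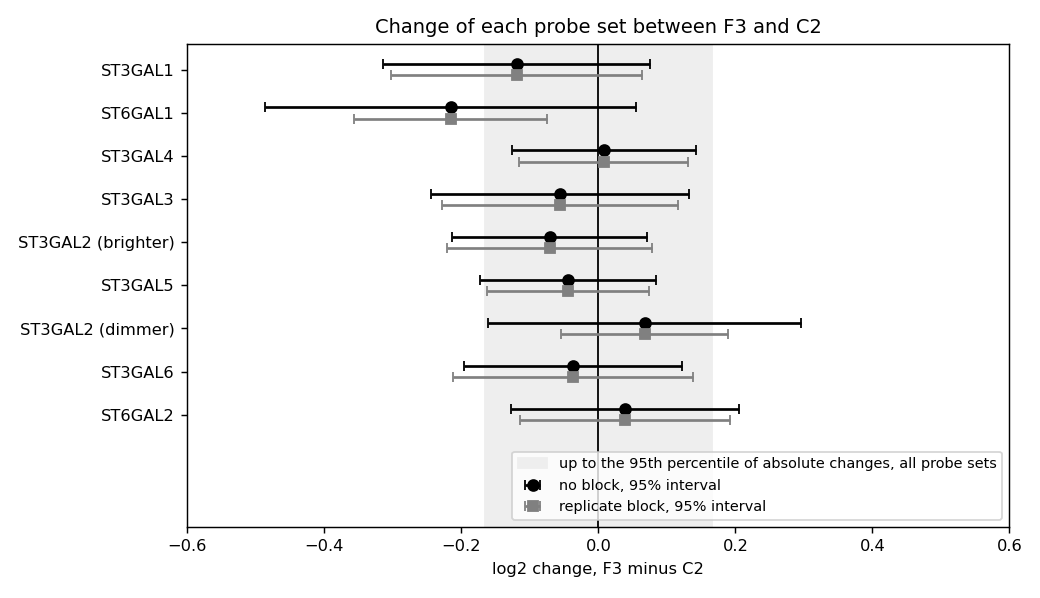
Log2 change, F3 minus C2, of each probe set with its 95% interval, without a block (black circles) and with the replicate number as a block (grey squares), over a band that reaches to the 95th percentile of absolute changes of all 1259 probe sets (0.166). Every unblocked interval includes 0, and ST6GAL1, at -0.22, lies outside the band.

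Across the family no unblocked interval went below -0.49 or above 0.30 on the log2 scale. A loss of signal beyond 1.40-fold thus lay outside the 95% interval of every member, with ST6GAL1 setting that limit. ST3GAL6 (2.63) and ST6GAL2 (2.60) lay near the floor, where the lowest value of the table is 2.08. For these genes a loss of transcript of that size might not show in the signal. The populations were separated, with every array of one above every array of the other, on 0 of the 9 probe sets, beside 10.3% of all probe sets. All 3 pairs had F3 lower on 2 of the 9 probe sets, those of ST6GAL1 and ST3GAL5, beside 17.8% of all probe sets.

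The pair numbered 2 held the most negative differences of ST6GAL1, ST3GAL1, ST3GAL3 and ST3GAL6. For ST3GAL6, near the floor, this difference was -0.18, with F3 array 2 at -0.10 from the F3 mean and C2 array 2 at 0.04 from the C2 mean. On C2 array 2 the deviation from the C2 mean was 0.27 for ST6GAL1, 0.18 for ST3GAL3 and 0.16 for ST3GAL1, and on F3 array 2 it was 0.15 for ST6GAL1 but -0.0085 for ST3GAL3 and -0.05 for ST3GAL1. Over all probe sets the median deviation of C2 array 2 was 0.014, and its array weight in limma was 0.756, with F3 array 1 at 0.755 and the other 4 arrays between 0.942 and 1.467. The part of this array in the negative changes of ST6GAL1, ST3GAL1 and ST3GAL3 is given by the values without it above, which are -0.08, -0.04 and 0.03.

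**Figure D3:**
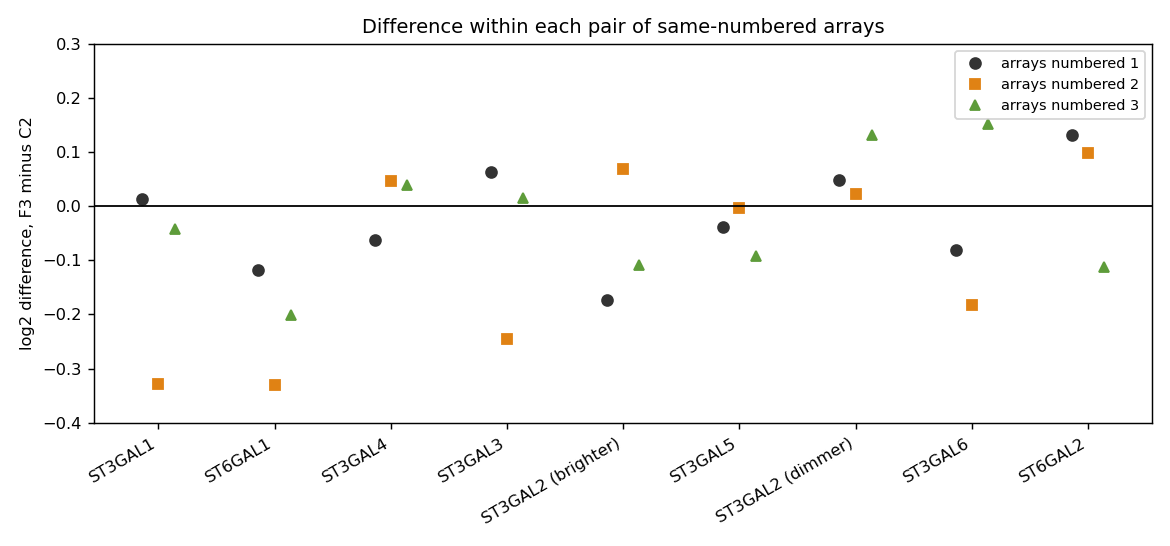
Log2 difference, F3 minus C2, within each pair of arrays of the same number, for the 9 probe sets in order of mean level. ST6GAL1 is below 0 in all 3 pairs, while ST3GAL1 and ST3GAL3 reach -0.33 and -0.25 in the pair numbered 2 and lie between -0.043 and 0.063 in the others.

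In order of signal over the 6 arrays the genes stood as ST3GAL1 (8.37), ST6GAL1 (7.52), ST3GAL4 (7.06), ST3GAL3 (6.39), ST3GAL2 (5.93), ST3GAL5 (5.57), ST3GAL6 (2.63) and ST6GAL2 (2.60), with the brighter ST3GAL2 probe set used. Down to ST3GAL5 each gene lay above the next on all 6 arrays, with no overlap of their ranges, and ST3GAL5 likewise lay above ST3GAL6. ST3GAL6 and ST6GAL2 overlapped, and each was the brighter on 3 arrays. This is an order of probe signal and not of transcript number, since probe sets bind with different efficiency, and the ST3GAL2 probe sets alone lay 0.92 apart. The dimmer one, with a mean of 5.02, lay below ST3GAL5 on all 6 arrays, so the place of ST3GAL2 depends on the probe set.

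ST6GAL1 was also set against the alpha2,3 genes, by a score of its log2 value minus the mean of those 6 on each array. The 6 genes differ in the chain they accept and ST6GAL2 is left out, so the score does not measure a balance of linkages. It was 1.42, 1.61 and 1.31 on F3 arrays 1 to 3 and 1.49, 1.83 and 1.50 on C2 arrays 1 to 3. F3 array 2 lay above C2 arrays 1 and 3, so the populations overlapped, and their means of 1.45 ± 0.15 in F3 and 1.61 ± 0.19 in C2 (SD, n = 3 each) differed by -0.16. Within pairs 1, 2 and 3 it differed by -0.07, -0.22 and -0.19, below 0 each time. Without C2 array 2 the difference of the means was -0.05, and no test was made of this score. The zero of the score depends on the probes and has no meaning of its own.

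The mean log2 level of the 8 genes was 5.74, 5.74 and 5.71 on the F3 arrays and 5.77, 5.85 and 5.76 on the C2 arrays. It thus lay lower on every F3 array, with a difference of -0.062, also when ST6GAL1 was left out (-0.040) or both ST6GAL1 and ST3GAL1 (-0.027). Over all probe sets the same means differed by -0.012. Once each array was centred on its median, the populations overlapped in the mean of the 8 genes (5.75, 5.72 and 5.74 in F3, 5.77, 5.84 and 5.74 in C2), and the difference was -0.047. All these family means used the brighter ST3GAL2 probe set, which changed by -0.07. The dimmer one changed by 0.07 and was left out, so the separation is shown only for that choice of probe set.

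ST6GAL1 spanned 0.61 over the 6 arrays, the widest span in the family and at the 98.3rd percentile of all probe sets. The 3 genes outside the family whose profile over the 6 arrays lay nearest, by the root mean square difference of log2 values after each gene's mean was removed, were GALNT6 (0.065), PKD1 (0.067) and JAG2 (0.068). A flat profile would lie 0.19 away. GALNT6 starts mucin-type O-glycans, PKD1 encodes polycystin-1 and JAG2 a Notch ligand. Because they were picked for likeness to ST6GAL1, a peak on C2 array 2 and a negative change come with the choice. All 3 were highest on that array, at 9.61 for GALNT6, 7.58 for PKD1 and 9.46 for JAG2. Their log2 changes were -0.21, -0.17 and -0.13, with limma adjusted p-values of 0.966, 0.966 and 0.974, and none passed.

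**Figure D4:**
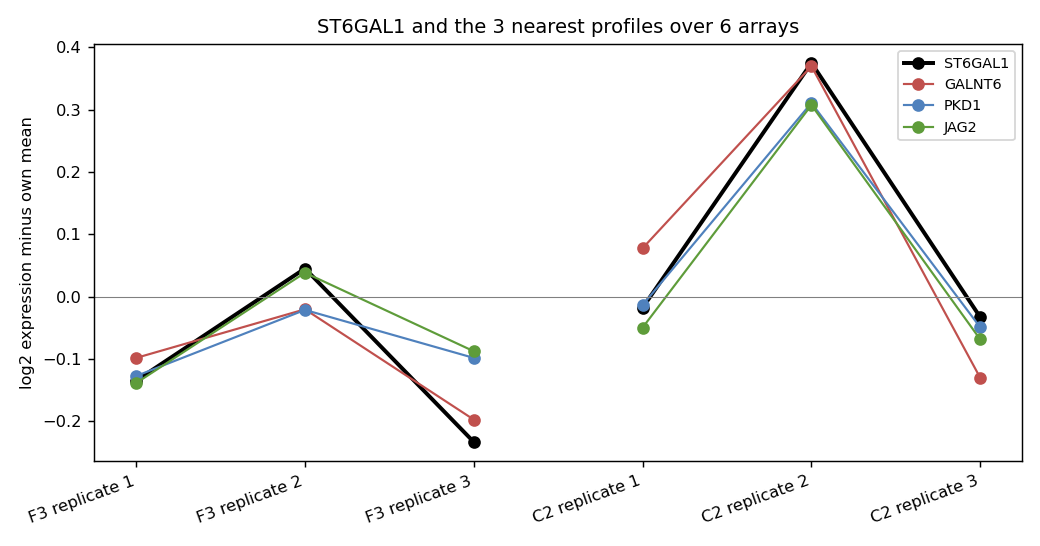
Log2 expression minus each gene's own mean over the 6 arrays, for ST6GAL1 (black) and the 3 genes with the nearest profile, with F3 arrays at the left and C2 arrays at the right. All 4 peak on C2 array 2, where ST6GAL1 lies 0.37 above its mean, and the shared peak comes with the choice by likeness.

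Among other genes of sialylation 0 rose and 0 fell in limma, in each of 7 lists, where 0.0794% of all probe sets passed. The sialyltransferases that act on N-acetylgalactosamine (6 of 6 measured) had a median log2 change of 0.0051 and ran from -0.07 to 0.23. The upper end was ST6GALNAC4, with values of 11.45, 11.20 and 11.18 in F3 and 11.34, 10.68 and 11.13 in C2. C2 array 2 was again the array that stood apart, here as the lowest, and the change of 0.23 (SE 0.15, limma adjusted p = 0.966) was 0.045 without it. The dimmer ST6GALNAC4 probe set was at 0.021. The alpha2,8 enzymes, which build polysialic acid and disialogangliosides (6 of 6 measured), had a median of -0.04, with ST8SIA2, a polysialic acid synthase, at 0.095 (SE 0.062, adjusted p = 0.966).

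No gene of sialic acid supply passed the test. Of 7 genes of sialic acid synthesis, breakdown and CMP-sialic acid transport 6 were measured, with a median log2 change of 0.021. They included GNE, the first enzyme of sialic acid synthesis, at -0.028, CMAS, which makes CMP-sialic acid, at 0.018 and its Golgi transporter SLC35A1 at 0.023. RENBP, which binds renin and interconverts N-acetylhexosamines, had the smallest p and stood at 0.061 (SE 0.062, limma adjusted p = 0.998). The 4 sialidases, which remove sialic acid, had a median of 0.038, with NEU4 at 0.072 (SE 0.083, adjusted p = 0.998).

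The enzymes around the acceptor galactose did not pass either. The 12 galactosyltransferase genes that build it, all measured and including the chaperone C1GALT1C1, had a median of -0.012. B3GALT1 had the smallest p in that list, at 0.13 on the log2 scale (SE 0.074, limma adjusted p = 0.966), at a low level of 3.42 in F3 and 3.29 in C2. Of 10 enzymes that compete for the same galactose 9 were measured, with a median of -0.015, and FUT1, which adds the fucose of the H antigen, was at -0.10 (SE 0.075, adjusted p = 0.974). Among 10 receptors that read sialic acid the median was 0.0064. SIGLEC5 had the smallest p of these, at 0.17 (SE 0.072, limma adjusted p = 0.926, unadjusted 0.049). Of all probe sets 5.40% had an unadjusted p under 0.05.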

How the data were processed

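Trizol RNA was labelled with biotin as Affymetrix prescribes, per the labels' protocols. Expression is in log2 units, as deposited, 1 value for each probe set and array, and the authors made it with RMA, per the submitters' processing notes. No source used here gives the RMA version, the probe set definitions or the genome build. The method equalises the distributions of arrays processed together, so a shift shared by most genes would be largely removed. Small differences between arrays remained in the deposited values. Their mean over all probe sets ran from 6.12 on F3 array 1 to 6.16 on C2 array 2. Values ran from 2.08 to 14.1.

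RefSeq accessions, without version, named 1043 of 1259 probe sets through the gene table of GRCh38.p14, and the other 216 were tested unnamed. F3 was set against C2 (3 arrays each) with limma 3.58.1 under R 4.3.3, using lmFit and eBayes. Tests were two-sided and Benjamini-Hochberg adjusted over all probe sets, with a threshold of 0.05. Each log2 change is F3 minus C2, with a 95% interval. The script was tested on simulated data. Where a gene had more than 1 probe set, the brightest stands for it. The number of arrays limits the precision, and at most 0.48% of values were identical between any 2 arrays.

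Arrays of one replicate number also share a label suffix. Their deviations from the population means correlated with r = 0.52 (number 1), 0.18 (number 2) and 0.26 (number 3) over all probe sets. For arrays of different numbers r ran from -0.38 to 0.15, the highest for F3 array 3 with C2 array 2. The pair numbered 2 thus stood little above these. Deviations within a population sum to 0, so a positive r for one number brings lower r for different numbers. The contrast is therefore partly built in and is weak support for the pairs. Arrays of one number were taken as pairs on the suffix and these values. The fit without the block is the main one.

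The members, lists and tests were chosen with earlier results of these data known. Named were all 8 members, the gene with the smallest p in each list, and the 3 genes nearest in profile to the member of widest span. GNE, CMAS and SLC35A1 were added after their values were seen. Alternatives were median centring, a second quantile normalization, the replicate block, leaving out probe sets with a mean under 4 or ending in _x_at, robust eBayes with a trend on intensity, array weights, an adjusted p under 0.10, and leaving out each array or each numbered pair.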

Additional observations from a re-analysis of the deposited data

How the results depend on the processing

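In 16 alternative fits and with an adjusted p under 0.10, the number of galactoside sialyltransferase probe sets past the threshold stayed at 0. Of the 142 alternative log2 changes of members, 128 kept their sign and 14, of 5 probe sets, turned, all of them near 0 and none past the threshold; the cause was not tested. ST3GAL4 was at -0.0029 with array weights. Over single arrays or numbered pairs left out it ran from -0.024 to 0.056, ST3GAL3 from -0.13 to 0.039, ST3GAL6 from -0.13 to 0.035, ST6GAL2 from -0.020 to 0.11, and the dimmer ST3GAL2 probe set from -0.016 to 0.16. ST6GAL1 kept its sign throughout, from -0.29 to -0.08, at -0.15 after quantile normalization and -0.16 with array weights, and its limma adjusted p ran from 0.469 with the replicate block to 0.999. ST3GAL1 ran from -0.19 to -0.01. With 1 array dropped in turn, the difference in the score of ST6GAL1 against the alpha2,3 genes ran from -0.24 to -0.05. Among all probe sets 1 passed, against 2 with the replicate block (PIGB and S100A10), 2 at an adjusted p under 0.10 and 0 to 2 with arrays or pairs left out. Among other named genes, NEU4 ran from -0.011 to 0.17 and RENBP from -0.0017 to 0.13 with arrays or pairs left out, both turning without a pair. The alternatives for the mean of the 8 genes were chosen after seeing the data. With 3 arrays a population, the 95% intervals of the members reached 0.13 to 0.27 to either side on the log2 scale without the replicate block and 0.12 to 0.18 with it. The blocked interval of ST6GAL1, not adjusted for the number of probe sets, left out 0.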
